A study of Homo sapiens with 5 samples.

Results

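H2A-K130ac, the acetylation of lysine 130 of histone H2A, was mapped by ChIP-seq at 8 genes that drive prostate cancer when lost, amplified, mutated or rearranged: RB1, CDKN1B, MYC, ERG, ETV1, SPOP, CHD1 and BRCA2. They are a list of names, drawn up with earlier results of these data known, out of 18343 genes that the authors' peak annotation gives limits to. For each gene, the peaks that touched its limits (the outermost transcript start and end in that annotation) were taken, and then those within 100 kb on each side, here called its window. The windows held 72 of the 67807 peaks of C4-2B cells treated with abiraterone, a drug that blocks androgen synthesis at CYP17A1, and 73 of the 91399 peaks of C4-2B cells treated with Romidepsin, a histone deacetylase inhibitor. C4-2B is a castration-resistant human prostate cancer line derived from LNCaP. The labels name breast cancer for both libraries, whereas the study uses C4-2B as a prostate cancer line, and the study was followed. There was 1 library per treatment, no untreated C4-2B library was analysed here, and the labels' treatment text, which gives 0.5 µM Romidepsin, is that of the VCaP samples, so dose and duration for these libraries are not given in the sources used here. All values below therefore describe 2 libraries, without a test between treatments. Peak lists hold no expression, so the identity of the cells could not be checked against marker genes.

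The 8 genes act at different steps of tumor growth. RB1 and CDKN1B hold back entry into the cell cycle, and both are often lost in prostate cancer, whereas MYC drives transcription of growth genes and is often amplified. ERG and ETV1 encode ETS transcription factors that come under androgen-driven promoters through rearrangements. SPOP brings substrates to a CUL3 ubiquitin ligase, CHD1 remodels nucleosomes, and BRCA2 serves the repair of DNA breaks by homologous recombination. In LNCaP, the parent of C4-2B, the ETV1 locus is itself rearranged, so positions at that gene are those of the reference genome and may not be neighbours in these cells.

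The 8 genes divided by which list held more peaks near them. CHD1 and BRCA2 had far more abiraterone peaks in their windows (18 and 20) than Romidepsin peaks (7 and 0). CDKN1B also had more abiraterone peaks (5 and 2), at low numbers. Romidepsin peaks were the more numerous at RB1 (7 and 14), MYC (6 and 9), ERG (6 and 17), ETV1 (4 and 8) and SPOP (6 and 16), as the plot of peak numbers shows. That order was the usual one, since genes within 25% of the length of each of the 8 had a median of 3 or 4 fewer abiraterone than Romidepsin peaks in their windows.

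**Figure D1:**
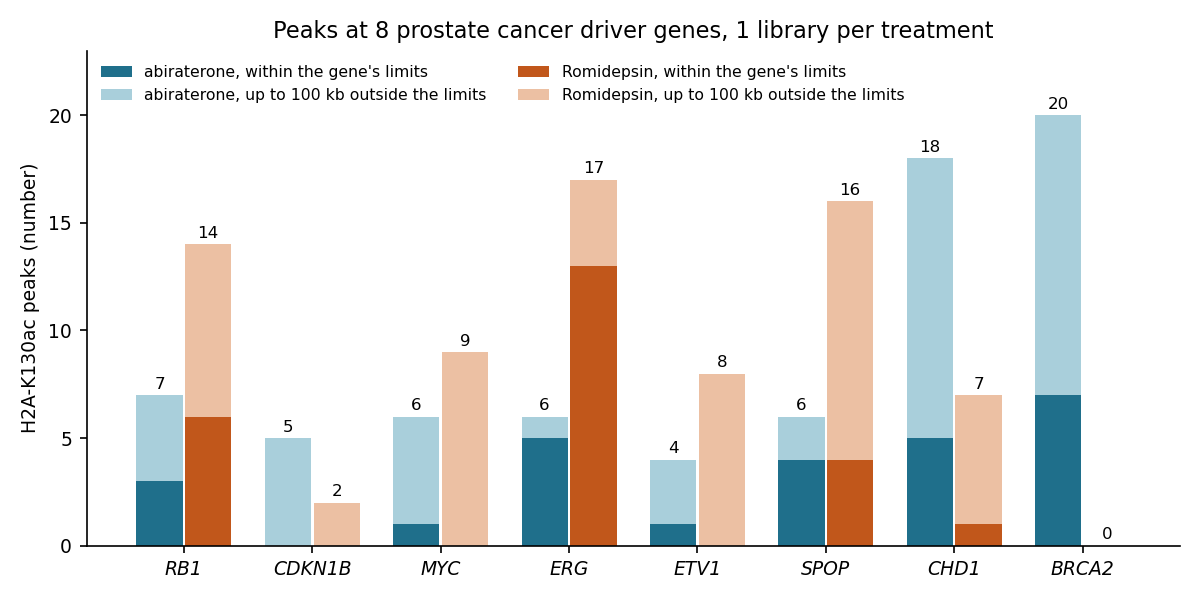
Number of H2A-K130ac peaks (y axis) at each of the 8 genes (x axis) in the abiraterone and the Romidepsin library, with the peaks inside the gene's limits in dark and those up to 100 kb outside in light colors, and the window total above each bar. CHD1 and BRCA2 stand out by 18 and 20 abiraterone peaks, and BRCA2 by 0 Romidepsin peaks, while ERG and SPOP hold the most Romidepsin peaks, 17 and 16.

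Summed over the 8 genes, the 2 lists held nearly equal numbers of peaks. Within the gene limits, which cover 805.8 kb in all, lay 26 abiraterone and 24 Romidepsin peaks, and in the windows 72 and 73. As the Romidepsin list is longer, there were 0.742 abiraterone peaks for each Romidepsin peak genome-wide, against 0.986 in the windows. The density in the windows was 29.9 abiraterone peaks per Mb, above the 22.2 per Mb of that whole list, and 30.3 Romidepsin peaks per Mb, close to its 29.9 per Mb. CHD1 and BRCA2, singled out after their counts were seen, held 38 of the 72 abiraterone peaks and 7 of the 73 Romidepsin peaks. The remaining 6 windows had 18.4 abiraterone and 35.7 Romidepsin peaks per Mb.

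A peak within the limits was present at 7 of the 8 genes in the abiraterone list, where 47.2% of all genes with limits have one, and at 4 of 8 in the Romidepsin list, where 59.1% do. These shares depend on gene length, and most of the 8 are long. In the windows, 8 of 8 genes had an abiraterone peak (97.4% of all genes) and 7 of 8 a Romidepsin peak (99.4% of all genes), so that BRCA2 was the exception. The 4 genes with Romidepsin peaks inside were RB1, ERG, SPOP and CHD1. CDKN1B had no peak inside its limits in either list.

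The peaks near these genes were of ordinary strength for their lists. Their fold over the control, as the authors' peak caller gave it with a control that the sources name differently (input or vehicle-treated cells), ranged from 1.88 to 6.56 in the abiraterone list (median 2.83, as over the whole list) and from 1.74 to 4.35 in the Romidepsin list (median 2.61, as over the whole list). No normalization links the folds of the 2 libraries, so they are given within each list only. They also take few distinct values: 54.2% of the abiraterone and 82.2% of the Romidepsin peaks in the windows had a fold that at least 1000 peaks of the same list share, so small differences in fold do not rank peaks. The lists hold no read counts, and the depth behind each peak is unknown. Of the abiraterone peaks in the windows, 16 (22.2%, exact 95% binomial interval 13.3 to 33.6%, counting error only) had a −log10 q of at least 2, as had 24.9% of the whole list. None of the 73 Romidepsin peaks in the windows did, against 2.73% of the whole list, a share that the interval for 0 of 73 (0 to 4.93%) includes. Within the limits, 4 genes had an abiraterone peak at that q, ERG, SPOP, CHD1 and BRCA2 (22.7% of all genes did), and 0 of 8 had a Romidepsin peak at that q (5.88% of all genes).

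**Figure D2:**
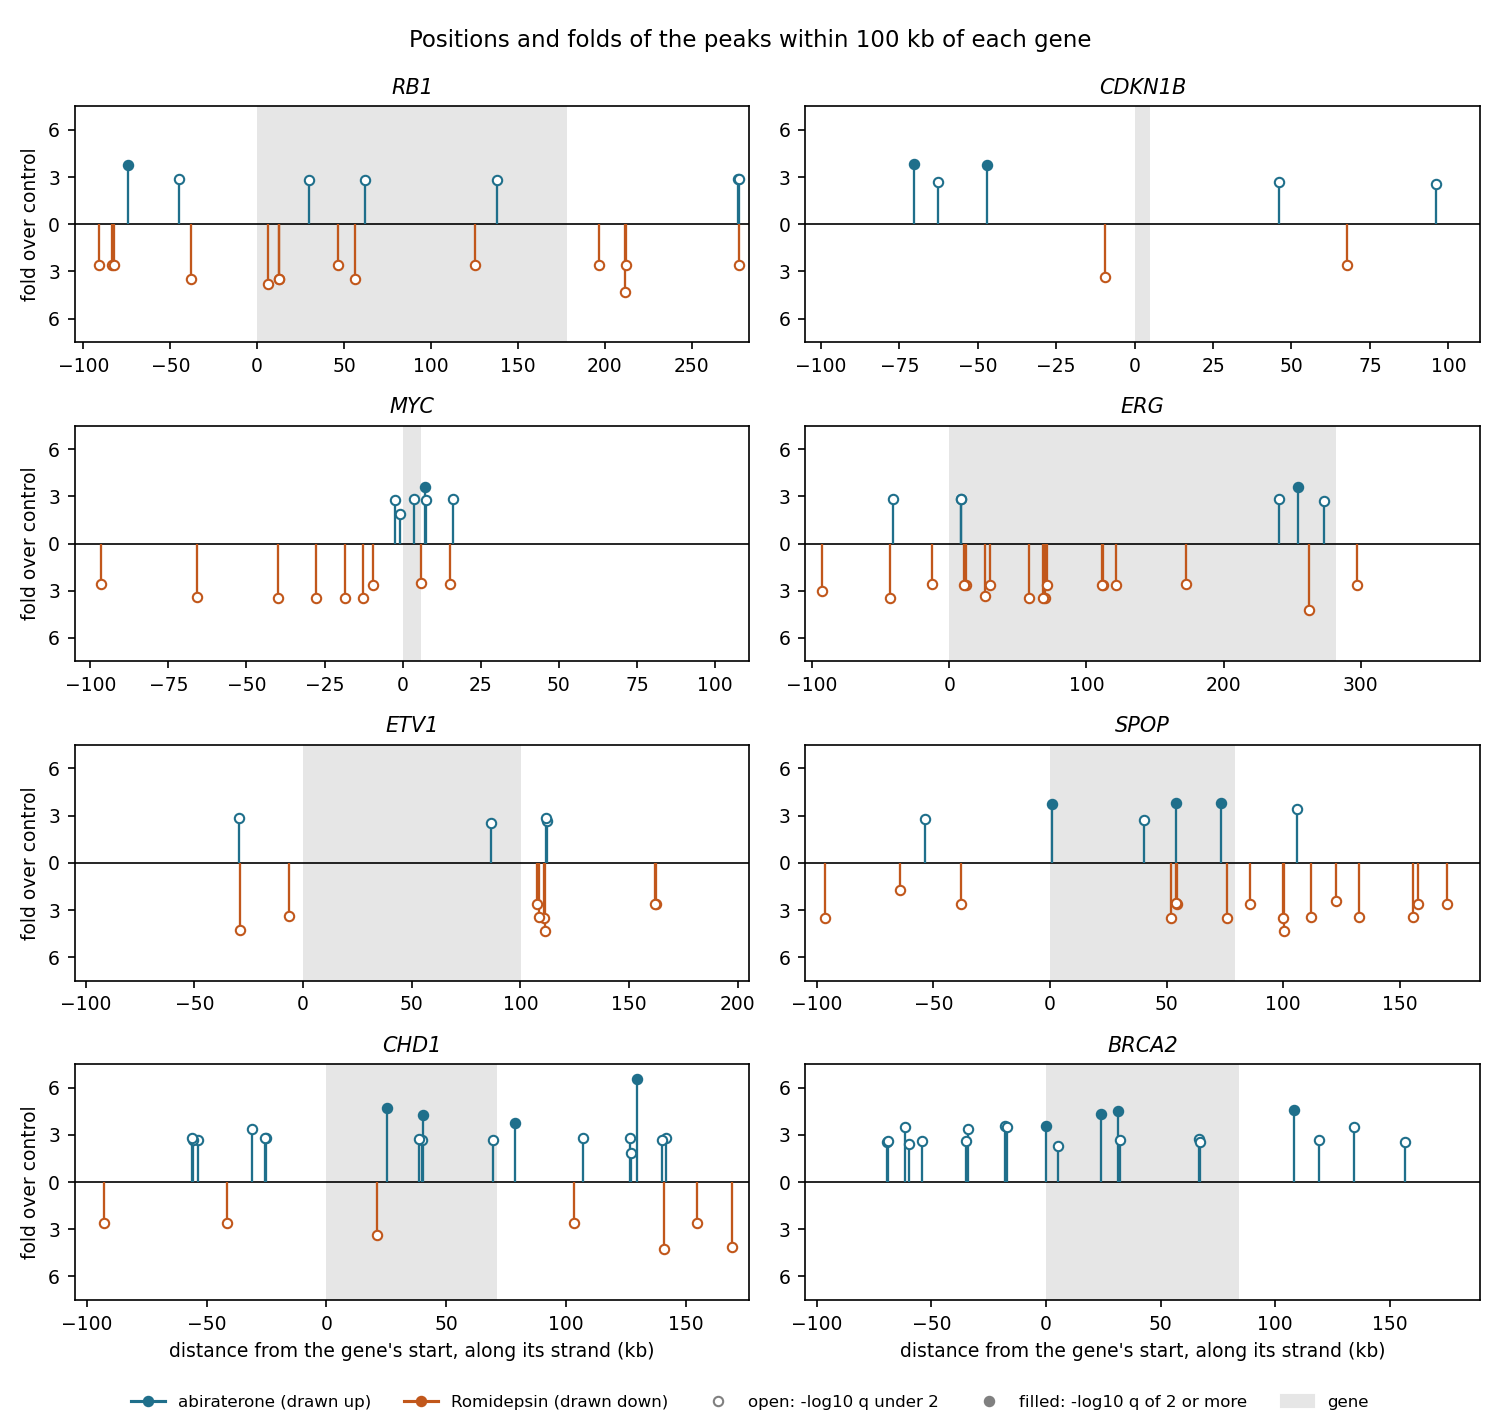
Peaks within 100 kb of each gene, drawn at the distance of their nearest edge from the gene's start along its strand (x axis, kb), with the fold over the control as height (y axis; abiraterone up, Romidepsin down, not comparable between the lists), filled points for a −log10 q of 2 or more and grey for the gene. Abiraterone peaks crowd around MYC and along CHD1 and BRCA2, Romidepsin peaks fill the first introns of ERG, and the BRCA2 window holds none of them.

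Start sites carried few peaks. A peak annotated to the gene within 3 kb of a start site was listed for 3 of the 8 genes in the abiraterone list, MYC, SPOP and BRCA2 (21.1% of all genes), and for 1 in the Romidepsin list, RB1 (32.7% of all genes), where the start is that of a shorter internal transcript. Only the BRCA2 peak lay across the outermost start itself. The distance from the outermost start to the nearest peak of either kind was 0 bp at BRCA2, 731 bp at SPOP, 898 bp at MYC, 6.19 kb at RB1, 6.28 kb at ETV1, 8.24 kb at ERG, 9.51 kb at CDKN1B and 21.0 kb at CHD1. For BRCA2, SPOP, MYC and ERG the nearest was an abiraterone peak, and for the other 4 a Romidepsin peak.

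The DNA just upstream of the start is shown for BRCA2, the gene with a peak across its start, and for CHD1, the gene with its nearest peak farthest away; they are also the 2 genes where abiraterone peaks most outnumbered Romidepsin peaks. Each line gives the 250 bases before the RefSeq start (GRCh38.p14), 5′ to 3′ on the gene's strand. The capitals mark the E-box CACGTG, a site that SREBF1 and other helix-loop-helix factors bind, and the GC box GGGCGG, searched on both strands. The BRCA2 bases lie at chr13:32315258-32315507 on the plus strand, and the CHD1 bases at chr5:98929008-98929257 on the minus strand.
BRCA2: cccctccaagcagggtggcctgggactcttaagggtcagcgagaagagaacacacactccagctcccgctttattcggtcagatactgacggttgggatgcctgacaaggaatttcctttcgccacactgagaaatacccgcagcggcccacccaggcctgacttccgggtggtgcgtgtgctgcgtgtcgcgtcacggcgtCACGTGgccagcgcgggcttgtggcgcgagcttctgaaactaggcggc
CHD1: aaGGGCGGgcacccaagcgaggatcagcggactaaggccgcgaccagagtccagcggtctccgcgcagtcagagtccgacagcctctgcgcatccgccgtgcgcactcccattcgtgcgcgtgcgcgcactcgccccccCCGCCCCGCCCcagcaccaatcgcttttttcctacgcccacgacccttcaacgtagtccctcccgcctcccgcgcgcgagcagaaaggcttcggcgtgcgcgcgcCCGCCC

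BRCA2 held 1 E-box, which begins 48 bases before the start, and no GC box. CHD1 held 4 GC boxes, which begin 248, 111, 106 and 6 bases before the start, with the match at 111 and that at 106 sharing 1 base, and no E-box. An E-box was found in 6.34% of the 35116 RefSeq promoters searched in the same way, and a GC box in 42.6%. The sterol regulatory element TCACNCCAC, the other site of SREBF1, was in 0.883% of them and in none of those of the 7 genes other than MYC, for which no sequence was searched. For RB1 the only sequence searched, chr13:48476200-48476449, lies at an internal start. The bases before the outermost RB1 start were not searched. The G+C content was 61.6% for BRCA2 and 70.8% for CHD1, with 20 and 36 CpG dinucleotides, beside medians of 58.0% and 11 over all promoters. The peak positions are those of hg19, so the peak across the BRCA2 start was not laid over these bases, and a match is a description of the letters and not a binding site.

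BRCA2 had the largest difference between the lists. Its limits (hg19 chr13:32889617-32973809, plus strand, 84.2 kb) held 7 abiraterone peaks and 0 Romidepsin peaks, and its window 20 and 0. The peak across the start, chr13:32889345-32890053, reached 272 bp upstream and 436 bp downstream of it (fold 3.58, −log10 q 2.02.) The next peak, chr13:32894812-32894936, lay 5.20 kb inside, in intron 3 of a short transcript, with a fold of 2.32. Exon 11 of 27, the long exon that codes for the BRC repeats, held the peak chr13:32913602-32913831 (fold 4.34, −log10 q 2.66.) Intron 13 held a pair, chr13:32921239-32921445 (fold 4.54, −log10 q 3.15), and chr13:32921865-32922188 with a fold of 2.69. A second pair lay in intron 24 of 26, chr13:32956412-32956656 and chr13:32956810-32957011, with folds of 2.72 and 2.55. The exon 11 peak and the stronger of the intron 13 pair thus had the highest folds within the gene, and the start site peak came next.

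The remaining 13 abiraterone peaks of the BRCA2 window lay over or between its neighbours. Upstream, FRY had 6 of them in its introns 47 to 58 and 1 at an internal start site, and a pair lay between FRY and ZAR1L, 17.9 and 17.1 kb before the BRCA2 start. Downstream, N4BP2L1 had 1 peak in intron 1 with the highest fold of the window, by a small margin (fold 4.57, −log10 q 3.29). N4BP2L2 had 3 peaks in its introns. None of these 4 genes had a Romidepsin peak within its limits, whereas the abiraterone peaks within their whole limits were 16 at FRY, 0 at ZAR1L, 1 at N4BP2L1 and 5 at N4BP2L2. The difference at BRCA2 thus extended over its neighbours.

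The Romidepsin list was bare from chr13:32372835 to 33128044, a stretch of 755.2 kb that holds all of BRCA2, FRY, ZAR1L, N4BP2L1 and N4BP2L2. Inside it lay 43 abiraterone peaks, 56.9 per Mb, with folds from 2.32 to 5.26 (median 2.74), 9 of them at a −log10 q of at least 2. The Romidepsin list has 91375 stretches between neighbouring peaks, of which 44, this one included, are at least as long. The other 43 held at most 9 abiraterone peaks, and 15 of them held none. Among Romidepsin-free stretches of any length, the next held 34 abiraterone peaks, and the highest number of Romidepsin peaks in an abiraterone-free stretch was 27. In the 1 Mb before the bare stretch, 56 abiraterone and 18 Romidepsin peaks were listed, and in the 1 Mb after it 42 and 9, so the surplus of abiraterone peaks continued on both sides without the total absence. Reads and control coverage over the stretch were not analysed here, and whether the Romidepsin list used here is complete over it could not be checked, so the 0 at BRCA2 holds for the list as used.

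**Figure D3:**
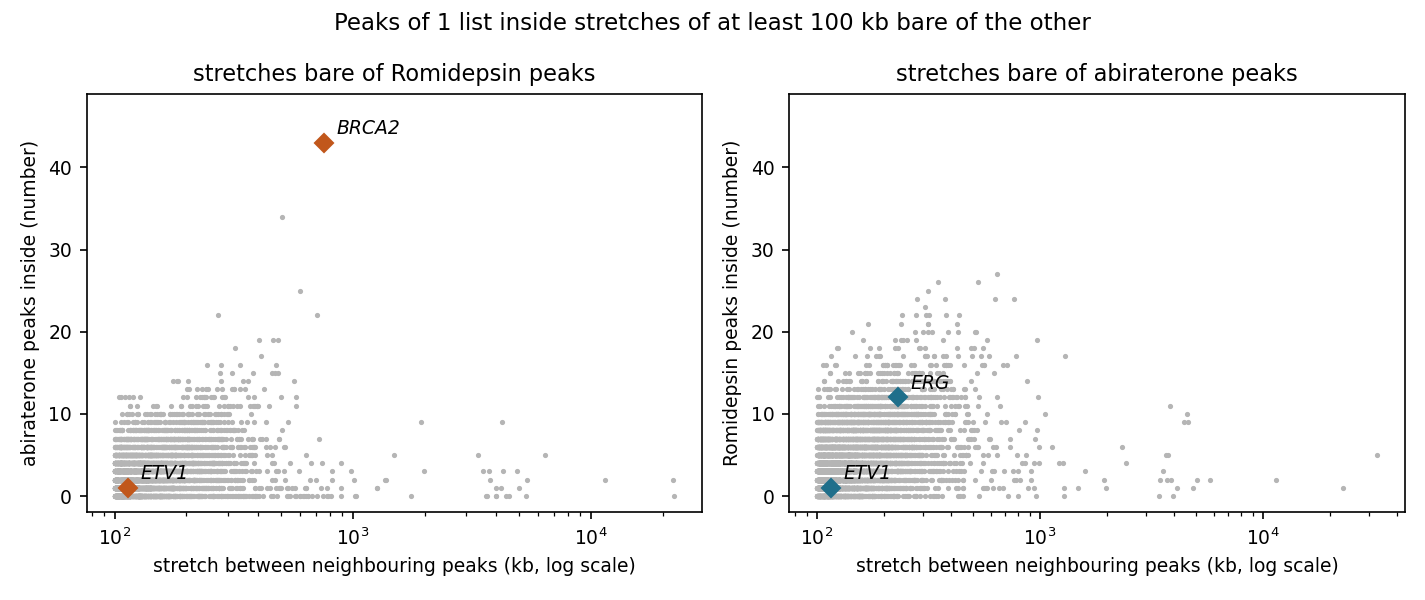
Each point is a stretch of at least 100 kb between neighbouring peaks of 1 list (left Romidepsin, right abiraterone), with its length (x axis, kb, log scale) and the number of peaks of the other list inside it (y axis); diamonds mark the stretches that hold the middle of a named gene. The stretch around BRCA2 holds 43 abiraterone peaks, more than any other, and the abiraterone-free stretch inside ERG holds 12 Romidepsin peaks.

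Over the genes with limits, a window without a Romidepsin peak was rare and usually poor in abiraterone peaks as well. Genes with no annotated peak in either list have no limits and are not counted here. BRCA2 has limits only through its 7 annotated abiraterone peaks, so its standing among these genes rests partly on that choice. A window without a Romidepsin peak was found at 101 of the 18343 genes, whose abiraterone windows held a median of 2 peaks. BRCA2 with 20 and its neighbour FRY with 32, the highest count, were the only 2 of these genes with as many. Among the 1783 genes within 25% of the length of BRCA2, the median window held 7 abiraterone and 10 Romidepsin peaks, 2 genes had more than 20 abiraterone peaks, and 1 had a surplus of abiraterone over Romidepsin peaks of 20 or more.

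CHD1 resembled BRCA2 in its abiraterone peaks, but it had Romidepsin peaks as well. Its limits (chr5:98190908-98262238, minus strand, 71.3 kb) held 5 abiraterone peaks and 1 Romidepsin peak, and its window 18 and 7. Exon 5 of 35 held the abiraterone peak nearest to the start, chr5:98236835-98237074, 25.2 kb inside (fold 4.70, −log10 q 3.80.) Exon 16 held chr5:98223365-98223793 with a fold of 2.77. Beside it, intron 16 held chr5:98221493-98221917 (fold 4.26, −log10 q 2.66), and chr5:98222164-98222288 with a fold of 2.70. The remaining one, chr5:98192610-98192944, lay in the last intron of a short transcript with a fold of 2.70. CHD1 and BRCA2 thus held the 3 abiraterone peaks that the annotation places in exons of the 8 genes, and the strongest peak of CHD1 was one of them. The only Romidepsin peak in the gene, chr5:98241109-98241233, lay in intron 1, 21.0 kb inside, with a fold of 3.38, and was 4.04 kb away from the exon 5 peak.

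Outside CHD1, the highest fold of all window peaks of either list was at chr5:98132287-98132524 in the abiraterone list (fold 6.56, −log10 q 6.68, rank 320 of 67807 by fold), 129.7 kb from the CHD1 start where the annotation places it within 300 bp past the end of a transcript. In the same direction, RGMB and RGMB-AS1, whose limits overlap, shared 1 Romidepsin peak within them, chr5:98107149-98107492, and had no abiraterone peak there. That absence holds for the limits only, which can be short of the whole gene. Just past them, the last intron of a transcript that the limits do not cover held the abiraterone peaks chr5:98119864-98120466 and chr5:98121958-98122398. The Romidepsin peak chr5:98120984-98121567 lay between these, and all were annotated to RGMB-AS1 at a distance. At LOC100289230, upstream of CHD1, neither list had a peak within the limits, although 6 abiraterone and 2 Romidepsin peaks of the window were annotated to it at a distance. The bare Romidepsin stretch over the middle of CHD1 was 82.0 kb long and held 6 abiraterone peaks, and 2.96% of 7579 Romidepsin-free stretches within 25% of its length held as many (median 1).

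At ERG, Romidepsin peaks outnumbered abiraterone peaks inside the gene. Its limits (chr21:39751950-40033704, minus strand, 281.8 kb) held 5 abiraterone and 13 Romidepsin peaks, every one in an intron, and its window 6 and 17. The abiraterone peaks stood at the 2 ends of the gene: chr21:40025339-40025463 and chr21:40025051-40025180 lay in intron 1, 8.24 and 8.52 kb inside the start, both with a fold of 2.85. The others lay near the 3′ end, at chr21:39793124-39793384 and chr21:39778668-39779201 in intron 5 of 11, with folds of 2.85 and 3.58, and at chr21:39759889-39760188 in intron 11, with a fold of 2.69. Between the 2 groups the abiraterone list was bare for 231.7 kb, in which 12 of the 13 Romidepsin peaks lay. Among the 1612 other abiraterone-free stretches within 25% of that length, 9.68% held as many Romidepsin peaks (median 6). The Romidepsin peaks were in intron 1 (8 peaks), intron 3 (4 peaks) and intron 8 (1 peak), the nearest to the start being chr21:40022570-40022876, 10.8 kb inside with a fold of 2.61, and the highest chr21:39771367-39771730 in intron 8, with a fold of 4.23. The long middle part of ERG thus carried Romidepsin peaks alone. KCNJ15, downstream, had 1 Romidepsin peak within its limits, and LINC00114, upstream, had none in either list, with a Romidepsin peak 2.53 kb before its start.

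At ETV1, the other ETS gene, the gene body was nearly free of peaks. Its limits (chr7:13930856-14031050, minus strand, 100.2 kb) held 1 abiraterone peak, chr7:13944327-13944657 in intron 8 of 9, with a fold of 2.55, and 0 Romidepsin peaks, where 90.4% of the 1683 genes of similar length had at least 1. Both lists had peaks in the same 2 places outside the gene. Upstream, 29.4 kb before the start, the abiraterone peak chr7:14060471-14061217 (fold 2.83) overlapped the Romidepsin peak chr7:14060181-14060626 (fold 4.30). Past the 3′ end, 2 abiraterone peaks at 112.0 and 111.7 kb from the start faced 4 Romidepsin peaks from 111.2 to 107.4 kb, the nearest of them 369 bp apart. Other Romidepsin peaks had no abiraterone peak beside them. A Romidepsin peak with a fold of 3.38 lay 6.28 kb before the start. A further pair, chr7:13868730-13868894 and chr7:13869047-13869276, lay past the 3′ end, 50.0 and 49.7 kb from the nearest abiraterone peak. No other gene with limits touched the ETV1 window.

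The cell cycle inhibitors RB1 and CDKN1B had no peak near their outermost starts. RB1 (chr13:48877883-49056026, plus strand, 178.1 kb) held 3 abiraterone and 6 Romidepsin peaks within its limits, and 7 and 14 in its window. Its abiraterone peaks lay at chr13:48907493-48907802 in intron 1 of a short transcript, at chr13:48939950-48940690 in intron 9 of 26 and at chr13:49016009-49016318, with folds of 2.83, 2.82 and 2.83. The Romidepsin peaks began closer to the start: chr13:48884074-48884205, 6.19 kb inside, had a fold of 3.77, and the pair chr13:48890204-48890332 and chr13:48890500-48890624 had folds of 3.48. Farther in, chr13:48924591-48924893 had a fold of 2.58, and chr13:48934083-48934426, 56.2 kb inside, lay across the start of a shorter RB1 transcript with a fold of 3.48. The last, chr13:49002994-49003374 (fold 2.61), and the last abiraterone peak were annotated not to RB1 but to LPAR6, a gene inside RB1, 1.95 kb before and 2.52 kb after an LPAR6 start. Romidepsin peaks thus stood mostly on the 5′ side of RB1, and no peak of 1 list there overlapped one of the other, the closest being 5.52 kb apart.

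Around RB1, the neighbours held small numbers of peaks within their limits. ITM2B had 1 abiraterone peak within its limits and LINC00462 had 2, with no Romidepsin peak in either, whereas RCBTB2 had 3 Romidepsin peaks, the highest with a fold of 4.30 in a 5′ UTR, and no abiraterone peak. Peaks of both lists were also annotated to ITM2B outside its limits. At LINC00462 a Romidepsin peak lay 246 bp from an abiraterone peak, just outside the limits of LINC00462.

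CDKN1B (chr12:12870302-12875305, plus strand, 5.00 kb), which encodes the kinase inhibitor p27, had no peak within its limits and 5 abiraterone and 2 Romidepsin peaks in its window. The nearest was a Romidepsin peak, chr12:12860506-12860796, 9.51 kb before the start with a fold of 3.38, and the nearest abiraterone peak lay 46.1 kb after the start, 770 bp before MIR613. A short gene without a peak was common: 84.6% of the 1295 genes of similar length had no abiraterone peak and 70.0% no Romidepsin peak. Its Romidepsin window was sparse in comparison, as 94.9% of those genes had more than 2 Romidepsin peaks in theirs. Of the other neighbours, DDX47 had 2 abiraterone peaks within its limits, GPR19 had 1, and CREBL2 and APOLD1 had none in either list, although a Romidepsin peak lay 386 bp before the APOLD1 start.

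At MYC (chr8:128747765-128753680, plus strand, 5.92 kb) the abiraterone peaks were close to the gene and the Romidepsin peaks were spread farther upstream. The abiraterone list had 1 peak within the limits, chr8:128751343-128751635 in the last intron, 3.58 kb inside, with a fold of 2.83. Before the start lay chr8:128744784-128745225, at 2.54 kb, with a fold of 2.76, and chr8:128746002-128746867, at 898 bp, with a fold of 1.88 that was among the lowest of its list (rank 66392 of 67807). The other 3 lay 7.09, 7.61 and 16.2 kb after the start, the first of them (fold 3.58, −log10 q 2.02.) All 6 abiraterone peaks were thus within 17 kb of the start. No Romidepsin peak touched the limits. The nearest, chr8:128753782-128753906, lay 6.02 kb after the start, just past the 3′ end, with a fold of 2.54. Of the others, 1 lay 15.2 kb after the start and 7 lay 9.64 to 96.6 kb before it, 5 of these in an intron of an unnamed upstream transcript. No other named gene with limits touched this window.

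SPOP was the gene where the lists met inside the gene. Its limits (chr17:47676246-47755525, minus strand, 79.3 kb) held 4 peaks of each list, and its window 6 abiraterone and 16 Romidepsin peaks. In intron 2 of 10, 54.0 kb inside, the abiraterone peak chr17:47700705-47701495 (fold 3.78, −log10 q 2.66) overlapped the Romidepsin peaks chr17:47700720-47701203 and chr17:47701398-47701522 (folds 2.61 and 2.58), and a further Romidepsin peak, chr17:47703084-47703509 (fold 3.48), lay 1.59 kb away. Near the 3′ end, the abiraterone peak chr17:47681761-47682355 in intron 9 (fold 3.80, −log10 q 2.66) and the Romidepsin peak chr17:47678962-47679496 in exon 10 of 11 (fold 3.48) were 2.27 kb apart. The 5′ part of the gene held abiraterone peaks alone. One, chr17:47754162-47754794, began 731 bp inside the start (fold 3.74, −log10 q 2.66), and the other, chr17:47714979-47715375 in intron 1, had a fold of 2.74. SPOP thus had 3 of its 4 abiraterone peaks at a −log10 q of at least 2, the same number as BRCA2 had of 7.

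Most of the other Romidepsin peaks of the SPOP window lay past its 3′ end. NXPH3 had 2 Romidepsin peaks within its limits, at 1.74 and 2.07 kb from its start and with folds of 4.35 and 3.48, NGFR had 1, and neither had an abiraterone peak. On the 5′ side, FAM117A had 3 Romidepsin and 2 abiraterone peaks within its limits and SLC35B1 had none of either. The bare Romidepsin stretch that begins in SPOP intron 2 ran for 90.4 kb across the start site, and 2 abiraterone peaks lay inside it. That number was ordinary, as 53.0% of 6673 Romidepsin-free stretches of similar length held as many (median 2).

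Peaks of the 2 lists seldom coincided at these genes. Of the abiraterone peaks in the windows, 2 of 72 (2.78%, exact 95% interval 0.338 to 9.68%) shared a base pair with a Romidepsin peak, beside 4.04% of the whole list, and of the Romidepsin peaks 3 of 73 (4.11%, 0.856 to 11.5%), beside 2.90%. They were those at SPOP intron 2 and upstream of ETV1. Both intervals include the share over the whole list. In the authors' annotation, introns held 47.2% (35.3 to 59.3%) of the abiraterone and 45.2% (33.5 to 57.3%) of the Romidepsin peaks in the windows, promoters of any gene 13.9% (6.87 to 24.1%) and 10.96% (4.85 to 20.5%), and exons 5.56% (1.53 to 13.6%) and 1.37% (0.0347 to 7.40%). Over the whole lists introns held 39.6% and 37.9%, promoters 7.58% and 8.85% and exons 2.70% and 3.30%, within these intervals. Distal intergenic peaks were 31.9% (21.4 to 43.99%) of the abiraterone peaks in the windows, below the 48.4% of that whole list, and 39.7% (28.5 to 51.9%) of the Romidepsin peaks, beside 47.95%. The windows are centred on genes, so a lower intergenic share is built into their choice. The sequence of exon peaks was not given here, since no genome of the peaks' build was used.

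Longer genes hold more peaks, so each gene was set beside all genes within 25% of its length. For peaks within the limits, 5 of 8 genes were at or above the median of such genes in the abiraterone list (CDKN1B, MYC, SPOP, CHD1 and BRCA2) and 5 of 8 in the Romidepsin list (RB1, CDKN1B, MYC, ERG and SPOP), where CDKN1B at 0 in both lists and MYC at 0 in the Romidepsin list only equalled a median of 0. The 7 abiraterone peaks of BRCA2 exceeded the number at 97.8% of 1783 genes (median 2), the 5 of CHD1 that at 92.4% of 1861 genes (median 2), and the 4 of SPOP that at 82.6% of 1806 genes (median 2). The 13 Romidepsin peaks of ERG exceeded the number at 74.2% of 639 genes (median 8). By contrast, the 5 abiraterone peaks of ERG were fewer than at 62.8% of these genes, and the 3 of RB1 fewer than at 58.9% of 1096 genes. The single Romidepsin peak of CHD1 was fewer than at 64.2%.

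In the windows, which are dominated by the flanks, CHD1 and BRCA2 were the genes farthest from their like. CHD1, with 18 abiraterone peaks, exceeded 99.1% of genes of similar length (quartiles 4 and 9), and BRCA2, with 20, exceeded 99.8% (quartiles 5 and 10). SPOP with 16 Romidepsin peaks exceeded 86.2% (quartiles 7 and 13). ERG with 6 abiraterone peaks was below 89.5% of 639 genes (quartiles 9 and 16), and ETV1 with 4 was below 78.7% of 1683 genes (quartiles 5 and 10). The 17 Romidepsin peaks of ERG were close to the median of 16 (quartiles 11 and 22). RB1 and MYC in both lists, the abiraterone peaks of CDKN1B and SPOP and the Romidepsin peaks of ETV1 and CHD1 also lay within the quartiles. The surplus of abiraterone over Romidepsin peaks, 20 at BRCA2 and 11 at CHD1, was matched or exceeded at 0.0561% and 0.699% of genes of similar length, while the typical gene had 3 fewer abiraterone than Romidepsin peaks. For ERG (11 fewer), SPOP (10 fewer) and RB1 (7 fewer), a difference as large in that direction was found at 24.1%, 12.1% and 33.3% of genes. ETV1 (4 fewer) and MYC (3 fewer) were ordinary in this respect, with 48.5% and 58.0%. For CDKN1B, with 3 more abiraterone peaks, the share was 7.72%. These shares describe where a gene stands among others in these 2 libraries. They are no tests, as genes near each other share peaks and only genes nearest to some peak have limits.

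**Figure D4:**
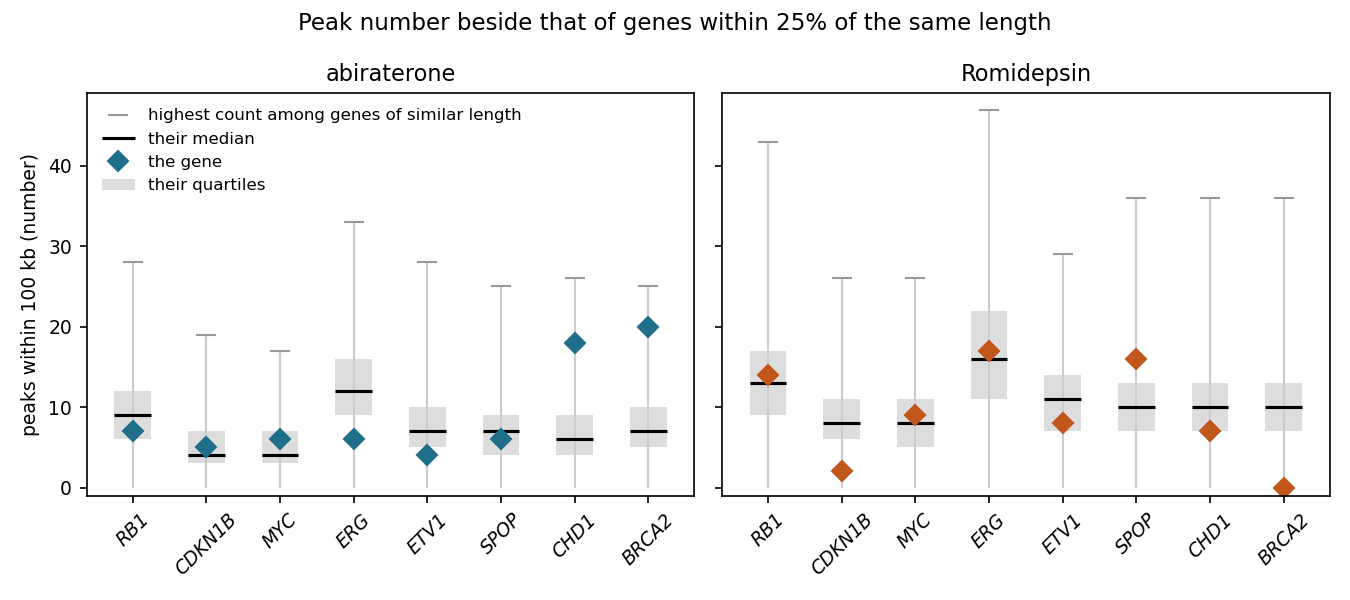
Number of peaks within 100 kb (y axis) of each of the 8 genes (diamonds) in the abiraterone (left) and the Romidepsin library (right), beside the quartiles (grey box), the median (black line) and the highest count (tick) among genes within 25% of the same length. CHD1 and BRCA2 lie above the box on the left with 18 and 20 peaks, SPOP lies above it on the right with 16, and CDKN1B and BRCA2 lie below it on the right with 2 and 0.

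The genes nearest in length to each of the 8 gave the same scale. For BRCA2 they were LINC02398, with 5 abiraterone and 5 Romidepsin peaks in its window, and DNAH1 (13 and 14). For CHD1 they were TCAIM (9 and 3) and PCOLCE2 (10 and 9), for ERG CHSY3 (13 and 7) and ABCC4 (7 and 9), and for SPOP LINC00469 (4 and 23). For RB1 they were ARID2 (10 and 4) and CTNNBL1 (3 and 20), for ETV1 PGR (10 and 8) and CCDC33 (11 and 19), for CDKN1B CD1C (4 and 6) and COL8A2 (4 and 7), and for MYC NEFL (3 and 10) and LINC00471 (3 and 8). None of these named genes had a window as rich in abiraterone peaks as that of CHD1 or BRCA2, or one without Romidepsin peaks. A surplus of 10 or more Romidepsin peaks, as at ERG and SPOP, was present among them, at CTNNBL1 and LINC00469.

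Most of the 8 windows differed in peak density from the chromosomes around them, in either direction. Chromosome 13, which carries BRCA2 and RB1, had fewer peaks per Mb in both lists (16.2 and 19.5) than the whole lists (22.2 and 29.9), and the RB1 window, at 18.5 and 37.0 per Mb, was richer in Romidepsin peaks than the chromosome, whereas the BRCA2 window was at 70.4 and 0 per Mb. On chromosome 5 the lists had 28.8 and 31.3 peaks per Mb, beside 66.3 and 25.8 in the CHD1 window. On chromosome 21 they had 10.2 and 19.03, beside 12.5 and 35.3 in the ERG window. The SPOP window, at 21.5 and 57.3 per Mb, and the MYC window, at 29.1 and 43.7, were likewise denser in Romidepsin peaks than chromosome 17 (20.3 and 32.1) and chromosome 8 (24.8 and 28.4). The CDKN1B window was poorer in Romidepsin peaks, at 24.4 and 9.76 per Mb beside 26.7 and 31.0 on chromosome 12. The ETV1 window was poorer in abiraterone peaks, at 13.3 and 26.6 per Mb beside 28.9 and 29.2 on chromosome 7.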

How the data were processed

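The analysis started from the H2A-K130ac peak lists of 2 C4-2B libraries, 1 treated with abiraterone and 1 with Romidepsin; the 3 VCaP samples were not analysed here. Per the study's methods, reads were aligned with Bowtie 2 and peaks were found with MACS, which the submitters' processing notes name as MACS2. Each list deposited by the authors holds narrow peaks, named as called over input, with a fold over the control, −log10 p- and −log10 q-values and a score, a scaled and truncated form of that p-value. Each came with a table of the same peaks that assigns every peak a class, the nearest gene and the distance to its start. The Reporting Summary describes duplicates, broad peaks and a stricter q, which these lists do not show, and pooling is not stated. It also names the vehicle-treated sample as the control, and the only input sample in the labels is of VCaP, so what the fold is relative to is not settled. The processing notes name hg38, but the last peak on chromosome 1 ends at 249191832, beyond the length of that chromosome in GRCh38, and transcript identifiers are those of UCSC hg19; positions were read as hg19. A single peak had become the header of each annotated table.

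Gene limits were the outermost transcript limits that the authors' annotation gives for a symbol in either list, available for 18343 genes nearest to some peak; a gene's transcripts without a nearest peak are left out. Peaks were counted within the limits and within 100 kb on each side. Genes of similar length were all others within 25%. Overlap meant 1 shared base pair or more. Promoter sequences came from RefSeq (GRCh38.p14), and 18316 of 18406 gene identifiers matched the RefSeq gene table, which served for names only. With 1 library per treatment no test was made; p- and q-values were used only as the authors gave them. The 8 genes, the list of 50 further prostate cancer genes and the counts were chosen with earlier results of these data known. Named were all peaks within the limits of the 8 genes (for ERG in the Romidepsin list the nearest and the highest), each gene touched by a window, the 2 genes nearest in length to each, and of the further genes those with a peak at a −log10 q of at least 2 within the limits or a peak within 3 kb of a start. Counts were repeated with the conservative tables, peak summits, the longest transcript, the gene symbol column, only peaks at a −log10 q of at least 2, 50 kb flanks, other overlaps, other length bands and, chosen after seeing the data, peaks at most 500 bp apart taken as 1 site. Some genes that this rule names are not reported here. The counting was tested on simulated peaks. Python 3.11.15, numpy 2.4.6, pandas 2.3.3, scipy 1.17.1 and matplotlib 3.10.9 were used.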

Additional observations from a re-analysis of the deposited data

How the results depend on the processing

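No paired analysis was possible because there was only 1 library per treatment. Of 34 recomputed values for 8 results, 25 stayed within 1.5 times the reported count or within the interval of the reported share, and 9 did not. At a −log10 q of at least 2, the abiraterone peaks within the limits of the 8 genes went from 26 to 9 and those in their windows from 72 to 16, and the Romidepsin peaks from 24 to 0 and from 73 to 0. At that q, 8 of 8 genes were at or above the Romidepsin median of genes of similar length, since gene and median alike were mostly 0. Peaks assigned by the gene symbol column numbered 47 and 56, as the annotation gives the nearest gene at any distance. When peaks up to 1 kb apart counted as shared, 13.9% of the abiraterone and 12.3% of the Romidepsin peaks in the windows were shared, beside 10.9% and 7.62% of the whole lists. The conservative tables were identical to the optimal ones and could not change a count. Taking peaks at most 500 bp apart as 1 site, an alternative chosen after seeing the data, left 22 and 21 sites within the limits and 60 and 67 in the windows. Without read counts the depth is unknown, and a missing peak may be one that did not reach the peak caller's threshold.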

Other observations

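Of 50 further genes recurrently altered in prostate cancer, 47 had limits in the annotation. An abiraterone peak lay within the limits of 34 of them (72.3%, exact 95% binomial interval 57.4 to 84.4%), where 47.2% of all genes have one, and a Romidepsin peak within those of 38 (80.9%, 66.7 to 90.9%), where 59.1% do. Both kinds lay within those of 31. Many of the 47 genes are long, and longer genes hold more peaks. More abiraterone peaks were found at 12 genes, more Romidepsin peaks at 23 and equal numbers at 12, of which 6 had no peak in either list. Over all genes with limits, 21.3% had more abiraterone peaks, 40.1% more Romidepsin peaks and 38.6% equal numbers, mostly none in either list (30.6%). Beside genes of similar length, 17 were above and 11 below the median in the abiraterone list, and 18 above and 13 below it in the Romidepsin list. The limits of a gene can be short of the whole gene, as for ATM, whose listed transcripts span 11.2 kb.

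Among DNA repair genes, RAD51B had the most peaks, 42 abiraterone and 46 Romidepsin, against medians of 22 and 20.5 for genes of its length. BRCA1 had 2 and 4, PALB2, the partner of BRCA2, had 1 and 1, with an abiraterone fold of 6.61, and ATM had 0 and 0 with a Romidepsin peak 2487 bp from a start. Unlike BRCA2, none of these named genes with abiraterone peaks lacked Romidepsin peaks.

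Among genes of androgen signalling, the androgen-driven TMPRSS2 and SLC45A3 had 5 abiraterone and 3 Romidepsin peaks each, and the coregulators NCOR1 and NCOA2 had 1 and 4, and 6 and 8. Among ETS genes, ETV4 had 1 and 1, ETV5 had 1 and 4, and FLI1 had 4 and 6. Abiraterone peaks were the more numerous at the kinase gene BRAF (10 and 4), at PIK3R1 (6 and 2) and PIK3CB (2 and 1), and at ZBTB16 (9 and 7), where 6 of the 9 had a −log10 q of at least 2. ZFHX3 had 16 and 16. Of the methyltransferase genes, KMT2D had 0 and 5, beside a median of 1 in each list for genes of its length, while KMT2C, with 7 and 9, equalled the medians for its length. CTNNB1 had 1 and 3, ZNRF3 2 and 3, RNF43 1 and 3, and CDKN2A 1 and 2. AURKA had 1 and 1, MDM2 had 1 and 0, with a Romidepsin peak 305 bp from a start, and MYCL had 0 and 1.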
